A study of Mus musculus with 12 samples.

Results

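The genes described here are 10 members of the eicosanoid synthesis pathway, taken by symbol from the 55385 genes of the deposited expression table. They were Pla2g4a, Pla2g6, Ptgs1, Ptgs2, Ptgds, Ptges, Alox5, Alox5ap, Alox12 and Ephx2, and each symbol matched a single row. RNA from the brain of 12 male C57BL/6J mice, bought at an age of 8 weeks, was sequenced, with 3 mice in each of 4 groups and 1 library per mouse. C_W mice received water and no stress. C_O mice received krill oil and no stress. MS_W mice received water and chronic unpredicted mild stress (CUMS), and MS_O mice received both krill oil and CUMS. Krill oil was given into the stomach at 200 mg/kg per day for 5 weeks, and CUMS, a changing series of mild stressors, lasted 4 weeks. All mice were perfused with saline before the brain was taken. The labels name each library by group and mouse number, such as MS_W95.

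Eicosanoids are signalling lipids made from arachidonic acid and related fatty acids. Phospholipase A2 enzymes free the fatty acid from membrane phospholipids, and it then enters the cyclooxygenase route to prostaglandins, the lipoxygenase route to leukotrienes and hydroxy fatty acids, or the cytochrome P450 route to epoxides, which epoxide hydrolases break down. Krill oil supplies the n-3 fatty acids EPA and DHA, which compete with arachidonic acid for the same enzymes. In the brain, prostaglandins act in fever, sleep, synaptic signalling and inflammation.

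No member differed between the groups after adjustment in any of 7 comparisons. Levels are FPKM, fragments per length of transcript and per depth of the library, which corrects for transcript length so that genes can be set side by side. Differences are log2FC, the difference between group means of log2(FPKM + 1), from a single limma fit across 21393 genes (mean FPKM 0.1 or more), and p-values were adjusted across all of these genes (Benjamini-Hochberg). All 10 members passed this filter. A DEG is a gene that meets the criteria of the study, with p below 0.05 before adjustment and group mean FPKM differing more than 1 on the log2 scale. The p-value here is that of limma, whereas the study used Ballgown, so these are not the study's own calls. For the interaction, and for CUMS or krill oil averaged over both states of the other, the log2FC itself had to exceed 1 in size. By these criteria Alox12 was called in C_O vs MS_O and in MS_W vs MS_O, and Ptgds in C_W vs C_O, and each of these calls was lost when certain single libraries were left out.

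Estimated counts summed to between 50912906 and 75678721 per library, and every C_W library (69768244 or more) was deeper than every MS_W library (61608502 or fewer). Libraries C_O72 and MS_W95 stood apart. Pearson's r across the 21393 genes (not independent replicates) was 0.97 between this pair. It was 0.937 or less between one of the pair and any other library, whereas the remaining 10 libraries correlated with each other at 0.959 or more. The 12 hindbrain markers, which a whole brain should contain, summed to an FPKM of 89.7 in C_O72 and 52.8 in MS_W95 and to at most 0.454 in each of the other 10 libraries. The markers of cortical excitatory neurons were lowest in the same pair, at 155 and 109, against 184 to 495 in the other 10. The methods of the study describe whole brains, so the markers go against that description in these 10 libraries. The regions that each library holds are not given in the sources used here, and their part in the group comparisons, and in those over the 10 libraries, was not tested. In bulk tissue, fewer cells of a type and less RNA per cell cannot be told apart. Results that turn on these libraries are therefore also given over 10 libraries, with both left out.

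Mean FPKM over the 12 libraries placed the members in the order Ptgds (584), Ephx2 (8.63), Pla2g6 (3.73), Ptgs1 (3.35), Alox5ap (1.89), Ptgs2 (1.49), Ptges (1.24), Pla2g4a (0.469), Alox12 (0.229) and Alox5 (0.140). Ptgds was above Ephx2, and Ephx2 above Pla2g6, in all 12 libraries without overlap of their ranges. The ranges of all other neighbours in this order overlapped. Pla2g6 was above Ptgs1 in 10 of 12 libraries, and Alox12 above Alox5 in 8 of 12. The prostaglandin D synthase was thus by far the most abundant member, and the lipoxygenases rested on few reads, with 0 to 176 estimated counts per library for Alox12 and 4 to 77 for Alox5.

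**Figure D1:**
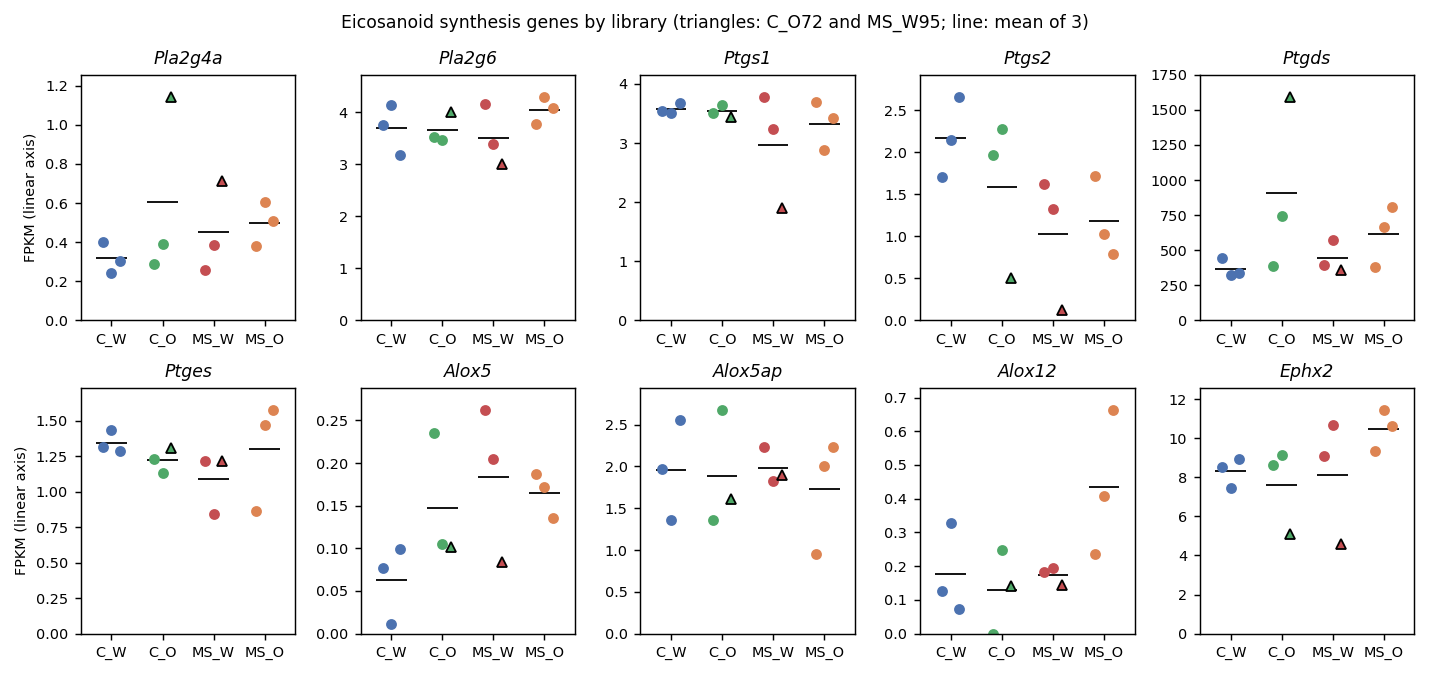
FPKM (linear axes from 0) of each member in the 12 libraries, by group, with a line at the mean of 3 mice and triangles for C_O72 and MS_W95. In these 2 libraries Ptgs2 and Ephx2 were at their lowest (Ptgs2 0.507 and 0.125) and Pla2g4a at its highest (1.14 and 0.712).

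Pla2g4a encodes cytosolic phospholipase A2 alpha, which prefers phospholipids that carry arachidonic acid. It lies on chromosome 1 from 149829618 to 149961290 on the minus strand of build GRCm38, on which all positions here are given. Its FPKM was 0.403, 0.245 and 0.303 in C_W1, C_W64 and C_W70, 0.290, 0.390 and 1.14 in C_O15, C_O30 and C_O72, 0.260, 0.387 and 0.712 in MS_W31, MS_W75 and MS_W95, and 0.383, 0.606 and 0.509 in MS_O13, MS_O46 and MS_O78. Every pair of groups overlapped, and the highest values were those of C_O72 and MS_W95. These libraries were also the highest pair for 16.3% of all tested genes. The largest of the pairwise differences was that of C_W vs C_O, a log2FC of 0.25 (95% interval -0.15 to 0.65, limma, adjusted p = 0.908), and over the 10 libraries it was 0.03 (interval -0.19 to 0.24).

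Pla2g6 encodes a phospholipase A2 that does not need calcium and takes part in membrane remodelling (chromosome 15, 79286228 to 79328390, minus strand). It varied least of the members as a ratio, 1.43-fold between the lowest and the highest library. Its FPKM was 3.76, 4.15 and 3.18 in the C_W mice, 3.52, 3.47 and 4.01 in the C_O mice, 4.16, 3.39 and 3.00 in the MS_W mice, and 3.78, 4.29 and 4.08 in the MS_O mice, each in the order of mouse numbers given above. All pairs of groups overlapped. The largest log2FC was 0.17 in MS_W vs MS_O (interval -0.11 to 0.45, limma, adjusted p = 0.84).

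The cyclooxygenases Ptgs1 and Ptgs2 catalyse the same first step towards prostaglandins. Ptgs1 is the form made constitutively, in the brain largely by microglia, and Ptgs2 is an inducible form that is also made by cortical and hippocampal excitatory neurons in step with their activity. Their promoters are shown as a description, and any link between these sequences and the levels over the libraries was not tested. Each line gives the 250 bases before the transcript start, from RefSeq on GRCm38.p6, 5′ to 3′ on the plus strand, at chr2:36230176-36230425 for Ptgs1 and chr1:150099781-150100030 for Ptgs2, with the GC box in capitals.
Ptgs1: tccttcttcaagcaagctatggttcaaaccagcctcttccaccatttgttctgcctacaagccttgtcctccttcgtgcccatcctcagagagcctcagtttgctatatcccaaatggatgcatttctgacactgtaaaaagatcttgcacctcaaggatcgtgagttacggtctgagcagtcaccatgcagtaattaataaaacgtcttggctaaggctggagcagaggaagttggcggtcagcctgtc
Ptgs2: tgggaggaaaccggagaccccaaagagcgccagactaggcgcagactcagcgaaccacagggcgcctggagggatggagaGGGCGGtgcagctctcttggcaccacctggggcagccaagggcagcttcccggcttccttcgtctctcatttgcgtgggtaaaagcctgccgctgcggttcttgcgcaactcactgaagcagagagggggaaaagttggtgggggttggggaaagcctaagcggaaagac

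On both strands, 5 motifs were searched, the CRE TGACGTCA, the E-box CACGTG, the GC box GGGCGG, the TATA box TATAAA and the AP-1 site TGACTCA. None of these letters occurred in the Ptgs1 window. The Ptgs2 window held 1 GC box, 170 to 165 bases before the start, and also overlaps exons of the antisense gene Ptgs2os. Only the bases of these windows were searched, so motifs further away or past the annotated start were not looked for. Of 32851 promoters of the same length, 32.74% held a GC box, 12.37% a TATA box, 6.021% an E-box, 4.463% an AP-1 site and 1.546% a CRE. The share of G and C was 61.6% for Ptgs2 and 48.0% for Ptgs1, with a median of 52.4% over all promoters. RefSeq promoters matched 8 of the 10 members.

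Ptgs1 (chromosome 2, 36230426 to 36252272, plus strand) was nearly level outside a single library. Its FPKM was 3.53, 3.51 and 3.67 in C_W, 3.51, 3.65 and 3.44 in C_O, 3.78, 3.23 and 1.89 in MS_W, and 3.69, 2.88 and 3.42 in MS_O. MS_W95 was lowest at 1.89, and the other 11 libraries lay between 2.88 and 3.78. All pairs of groups overlapped. The log2FC of C_W vs MS_W was -0.24 (interval -0.61 to 0.13, limma, adjusted p = 0.61), and over the 10 libraries it was -0.02 (interval -0.27 to 0.22). All 12 markers of microglia were found, and none was listed at 0.0001, the value the table gives a gene without an estimate, in every library. Their summed FPKM was 189 to 243 in C_W, 219 to 263 in C_O, 150 to 255 in MS_W, with the lowest value in MS_W95, and 233 to 260 in MS_O, and their part in the level of Ptgs1 was not tested. Exons of Ptgs1 overlap those of Gm43621 on the other strand, and whether the counting used strand is not given in the sources used here.

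Ptgs2 (chromosome 1, 150100031 to 150108227, plus strand) varied 21.2-fold between its lowest and highest library. Its FPKM was 1.71, 2.15 and 2.66 in C_W, 1.97, 2.28 and 0.507 in C_O, 1.63, 1.32 and 0.125 in MS_W, and 1.71, 1.02 and 0.793 in MS_O. Every MS_W mouse was below every C_W mouse, by little in the case of MS_W31, while the other pairs of groups overlapped. Of all tested genes, 24.6% did not overlap in C_W vs MS_W, and 8.22% were lower in MS_W without overlap. The lowest values were in MS_W95 and C_O72, which were also the lowest pair for 11.7% of all tested genes. The mean was 2.17 ± 0.474 (SD, n = 3) in C_W and 1.03 ± 0.795 (SD, n = 3) in MS_W, a log2FC of -0.73 (interval -1.52 to 0.07, limma, adjusted p = 0.5). Without MS_W95 it was -0.35.

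Taken over both treatments, the log2FC of Ptgs2 for CUMS was -0.46 (interval -1.02 to 0.10, limma, unadjusted p = 0.0982, adjusted p = 0.48). Over the settings tried it ran from -0.96 to 0.14, the latter with Ballgown's library size covariate, which is not the estimated count total. These settings include other pseudocounts, edgeR and DESeq2, whose log2FC is on a different scale. The 10 libraries gave -0.45 (interval -0.76 to -0.13, limma, unadjusted p = 0.0106, adjusted p = 0.128). In those 10, the mean was 2.16 ± 0.354 (SD, n = 5) without CUMS and 1.3 ± 0.392 (SD, n = 5) with CUMS. Both sets of mice overlapped at a single point, since MS_O13 and C_W1 each had an FPKM of 1.71. The difference was seen in both arms of the 10 libraries, with a log2FC of -0.35 (interval -0.79 to 0.09) in C_W vs MS_W and -0.54 (interval -0.98 to -0.10) in C_O vs MS_O (limma, adjusted p = 0.434 and 0.336). An unadjusted p under 0.05 for CUMS was reached by 22.2% of all tested genes in these 10 libraries.

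All 12 immediate early genes, which neurons switch on with activity, were found. Their summed FPKM was 255 to 343 in C_W, 97.7 to 300.2 in C_O, 63.2 to 205 in MS_W and 198 to 278 in MS_O. It was lowest in MS_W95 and C_O72, as was Ptgs2, and no marker of the list was at 0.0001 in every library. The list did not move as a whole. Egr1 and Arc were lowest in this pair, at 13.1 and 12.3 in C_O72 and 11.9 and 7.90 in MS_W95. Dusp1 and Ier2, in contrast, were highest in C_O72, at 16.6 and 9.60. The markers of cortical excitatory neurons summed to 457 to 495 in C_W, 155 to 470 in C_O, 109 to 188 in MS_W and 274 to 346 in MS_O. Over the 10 libraries, in which Ptgs2 was lower with CUMS, they summed to 425 to 495 without CUMS and 184 to 346 with CUMS, without overlap. Their part in the level of Ptgs2 was not tested. As a share of the summed FPKM of both cyclooxygenases, Ptgs2 was 6.21% in MS_W95 and 12.8% in C_O72, and between 18.8% (MS_O78) and 42.0% (C_W70) in the other libraries.

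Ptgds encodes the lipocalin-type prostaglandin D synthase, a secreted protein of the meninges, choroid plexus and oligodendrocytes and a source of the sleep-promoting prostaglandin D (chromosome 2, 25466709 to 25470046, minus strand). Its FPKM was 442, 327 and 334 in C_W, 385, 746 and 1591 in C_O, 398, 570 and 358 in MS_W, and 382, 667 and 804 in MS_O. C_O72 stood highest, and all pairs of groups overlapped, since C_O15 lay below C_W1. The mean was 907 ± 619 (SD, n = 3) in C_O and 368 ± 64.6 (SD, n = 3) in C_W. This was a ratio of 2.47, a log2FC of 1.08 (interval 0.07 to 2.09, limma, unadjusted p = 0.0383, adjusted p = 0.908), and made Ptgds a DEG. Among all tested genes, 0.865% were DEGs that were higher in C_O. Without C_O72 the log2FC was 0.56 (limma, unadjusted p = 0.164), and without C_O15 it was 1.58 (limma, unadjusted p = 0.00271, adjusted p = 0.495). The criteria were also missed without C_O30, C_W64 or C_W70, where the log2FC was 1.1, 1.00 and 1.02.

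With CUMS, the log2FC of Ptgds for krill oil was 0.44 (interval -0.56 to 1.45, limma, adjusted p = 0.862). Averaged over both stress states it was 0.76 (interval 0.05 to 1.48, limma, unadjusted p = 0.0386, adjusted p = 1), and over the 10 libraries 0.43 (interval -0.17 to 1.03, limma, unadjusted p = 0.138). The interaction, the difference between the effects of CUMS with and without krill oil, was -0.63 (interval -2.06 to 0.79). All 12 meningeal markers were found. They summed to 14.9 to 23.6 in C_W, 23.8 to 87.6 in C_O, 28.7 to 38.0 in MS_W and 21.3 to 49.4 in MS_O. The 4 libraries with the highest Ptgds (C_O72, MS_O78, C_O30 and MS_O46) were also the 4 with the highest meningeal sum, and C_O72 was first in both. Choroid plexus markers (10 of 10 found) summed to 5.76 to 850 in C_W, 7.90 to 4868 in C_O, 9.81 to 1833 in MS_W and 15.0 to 630 in MS_O, and oligodendrocyte markers (11 of 11 found) to 440 to 678, 344 to 1604, 555 to 890 and 409 to 562. Both of these lists were highest in C_O72 and second in MS_W95, where Ptgds was 358. No marker of the meninges, choroid plexus or oligodendrocyte lists was at 0.0001 in every library, and the part of these cells in the level of Ptgds was not tested.

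**Figure D2:**
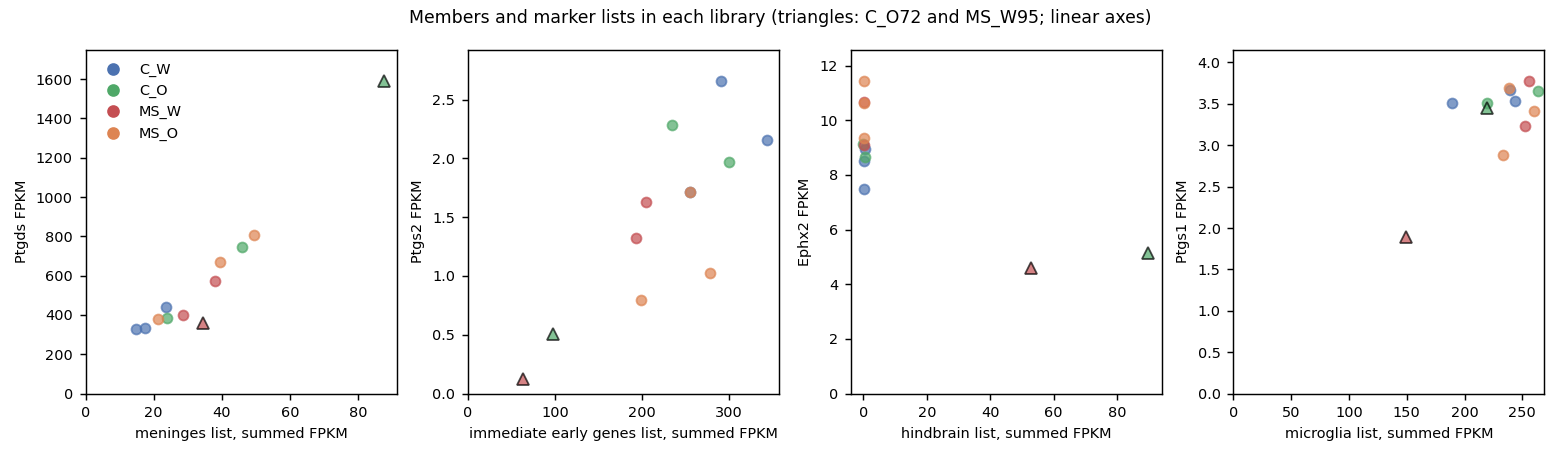
FPKM of Ptgds, Ptgs2, Ephx2 and Ptgs1 (linear axes) against the summed FPKM of a marker list in the same library, coloured by group, with triangles for C_O72 and MS_W95. Ptgds was highest (1591) where the meningeal sum was highest (87.6), Ptgs2 was lowest (0.125) where the immediate early sum was lowest (63.2), Ephx2 was lowest in the pair of libraries with hindbrain markers, and Ptgs1 was lowest (1.89) where the microglial sum was lowest (150). C_W1 and MS_O13 lie on the same point in the panel of Ptgs2.

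Ptges encodes the inducible microsomal prostaglandin E synthase (chromosome 2, 30889471 to 30903297, minus strand, with a more distant end at 30929863 in GENCODE release 21). Its FPKM was 1.32, 1.43 and 1.28 in C_W, 1.23, 1.13 and 1.31 in C_O, 1.21, 0.843 and 1.22 in MS_W, and 0.863, 1.47 and 1.57 in MS_O. Every MS_W mouse was below every C_W mouse, with 1.22 in MS_W95 and 1.28 in C_W70 the nearest, and the other pairs of groups overlapped. With Ptgs2, it was 1 of 2 members whose C_W and MS_W values did not overlap, both lower in MS_W, against 24.6% of all tested genes that did not overlap and 8.22% that were lower without overlap. The log2FC of Ptges in C_W vs MS_W was -0.17 (interval -0.47 to 0.13, limma, adjusted p = 0.646).

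Alox5 makes leukotrienes from arachidonic acid, and its partner Alox5ap encodes the protein FLAP, which presents the fatty acid to it in the nuclear membrane. Alox5 (chromosome 6, 116410077 to 116461178, minus strand) had an FPKM of 0.0765, 0.0116 and 0.0995 in C_W, 0.235, 0.105 and 0.102 in C_O, 0.262, 0.205 and 0.0838 in MS_W, and 0.187, 0.172 and 0.135 in MS_O. Every C_O mouse was above every C_W mouse, by little in the case of C_O72, against 4.08% of all tested genes that were higher without overlap in C_O. C_W and MS_W overlapped through MS_W95. At these levels 1 library rested on as few as 4 estimated counts (C_W64). The log2FC of C_W vs MS_W was 0.15 (interval -0.01 to 0.32, limma, unadjusted p = 0.0683, adjusted p = 0.5), and over the 10 libraries 0.22 (interval 0.06 to 0.37, limma, unadjusted p = 0.0132, adjusted p = 0.196). In those 10, Alox5 met the DEG criteria with a mean of 0.233 ± 0.0405 (SD, n = 2) in MS_W and 0.0625 ± 0.0456 (SD, n = 3) in C_W, and 3.49% of all tested genes were DEGs that were higher in MS_W.

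Alox5ap (chromosome 5, 149264767 to 149288153, plus strand) was more abundant than Alox5, with a mean FPKM of 1.89 against 0.140 over the 12 libraries. It was 1.96, 1.36 and 2.56 in C_W, 1.36, 2.67 and 1.61 in C_O, 2.23, 1.83 and 1.9 in MS_W, and 0.947, 2.0 and 2.23 in MS_O. All pairs of groups overlapped, and MS_W varied least, from 1.83 to 2.23. Its largest log2FC was -0.16 in MS_W vs MS_O (interval -0.68 to 0.35, limma, adjusted p = 0.902). Exons of Alox5ap overlap those of Gm19719 on the other strand.

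Alox12 encodes the platelet-type lipoxygenase (chromosome 11, 70241457 to 70255353, minus strand). Its FPKM was 0.127, 0.328 and 0.0728 in C_W, 0.247 in C_O30 and 0.142 in C_O72, 0.182, 0.194 and 0.143 in MS_W, and 0.235, 0.408 and 0.662 in MS_O, and it was listed at 0.0001 in C_O15. MS_O was above MS_W in every mouse, against 4.64% of all tested genes that were higher in MS_O without overlap. C_O and MS_O overlapped, since C_O30 lay above MS_O13. In C_O vs MS_O the ratio of means, which takes C_O15 at the listed value, was 3.35 and the log2FC 0.34 (interval 0.07 to 0.61, limma, unadjusted p = 0.02, adjusted p = 0.499), and 2.82% of all tested genes were DEGs that were higher in MS_O. The call was lost without C_O15, the library listed at 0.0001 (log2FC 0.26, limma, unadjusted p = 0.0845), and without MS_O78 (log2FC 0.23, limma, unadjusted p = 0.0884). Neither edgeR nor DESeq2 on the estimated counts made it a DEG.

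In MS_W vs MS_O, Alox12 had a ratio of means of 2.51 and a log2FC of 0.28 (interval 0.01 to 0.55, limma, unadjusted p = 0.0462, adjusted p = 0.815). DEGs that were higher in MS_O made up 1.43% of all tested genes in this comparison. The call was lost without any 1 of 7 libraries, C_O72, C_W1, MS_O46, MS_O78, MS_W31, MS_W75 and MS_W95. The interaction was 0.34 (interval -0.05 to 0.73, limma, unadjusted p = 0.0814, adjusted p = 0.665), so the effect of CUMS on Alox12 was not shown to differ with krill oil. All 10 platelet markers were found, but their sum is mostly Nrgn, which neurons also express. It was 863 to 1062 in C_W, 9.50 to 1089 in C_O, 27.1 to 406 in MS_W and 219 to 981 in MS_O, and its part in the level of Alox12 was not tested. Nrgn alone was 860 to 1059 in C_W, 6.67 to 1086 in C_O, 24.6 to 403 in MS_W and 216 to 979 in MS_O. The ranges of the sum are thus mainly those of Nrgn.

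Ephx2 encodes soluble epoxide hydrolase, which turns the epoxides of arachidonic acid, EPA and DHA into less active diols (chromosome 14, 66084374 to 66112386, minus strand, with a more distant end at 66124500 in GENCODE release 21). Its FPKM was 8.52, 7.48 and 8.94 in C_W, 8.64, 9.12 and 5.12 in C_O, 9.08, 10.7 and 4.58 in MS_W, and 9.33, 11.4 and 10.6 in MS_O. Every MS_O mouse was above every C_O mouse, against 8.90% of all tested genes, and the lowest values were in MS_W95 and C_O72. The log2FC of C_O vs MS_O was 0.44 (interval -0.15 to 1.03, limma, adjusted p = 0.654). Over the 10 libraries it was 0.21 (interval -0.05 to 0.47, limma, adjusted p = 0.426), and that of C_W vs MS_W changed from -0.10 (interval -0.69 to 0.49) to 0.22 (interval -0.04 to 0.48, limma, adjusted p = 0.394). For CUMS over both treatments, the 10 libraries gave a log2FC of 0.22 (interval 0.03 to 0.40, limma, unadjusted p = 0.0252, adjusted p = 0.172). With Ptgs2, it was 1 of 2 of the 10 members with an unadjusted p under 0.05 there, against 22.2% of all tested genes. The mean of Ephx2 in these 10 libraries was 10.2 ± 0.991 (SD, n = 5) with CUMS and 8.54 ± 0.640 (SD, n = 5) without. These mice overlapped only in that MS_W31 (9.08) lay below C_O30 (9.12). With all 12 libraries the log2FC was 0.17 (interval -0.25 to 0.59).

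Without krill oil, CUMS (C_W vs MS_W) put none of the 10 members past an adjusted p of 0.05 by limma, and none had an unadjusted p under 0.05, against 0.00467% and 10.5% of all tested genes. Of the members, 5 had a log2FC above 0 and 5 below, with a median of -0.03 (0.06 over all tested genes). None was a DEG, against 4.59% of all tested genes. With krill oil (C_O vs MS_O), none passed adjustment (0.00467% of all genes), and Alox12 was the only member with an unadjusted p under 0.05 (8.88% of all genes). The median was -0.02, against 0.03 over all tested genes, again with 5 members on either side of 0.

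Krill oil without CUMS (C_W vs C_O) gave no member past adjustment, and Ptgds alone had an unadjusted p under 0.05, against 3.55% of all tested genes, of which 0 passed adjustment. There were 3 members above 0 and 7 below, with a median log2FC of -0.03. Under CUMS (MS_W vs MS_O), no member passed adjustment (0.00467% of all genes) and Alox12 alone had an unadjusted p under 0.05 (6.09% of all genes). Here 8 members lay above 0, with a median of 0.16 against -0.02 over all tested genes, and 6 over the 10 libraries, with a median of 0.08. For the interaction, no member passed adjustment (0% of all genes), had an unadjusted p under 0.05 (7.23%) or was a DEG (1.79%). The same held for CUMS over both treatments, against 0.00935%, 12.5% and 0.379% of all genes. For krill oil over both stress states none passed adjustment (0.00467%) or was a DEG (0.0561%), and Ptgds alone had an unadjusted p under 0.05 (3.22%). In every comparison the count past adjustment was also 0 with edgeR and with DESeq2. Comparisons that share a group are not independent of each other.

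**Figure D3:**
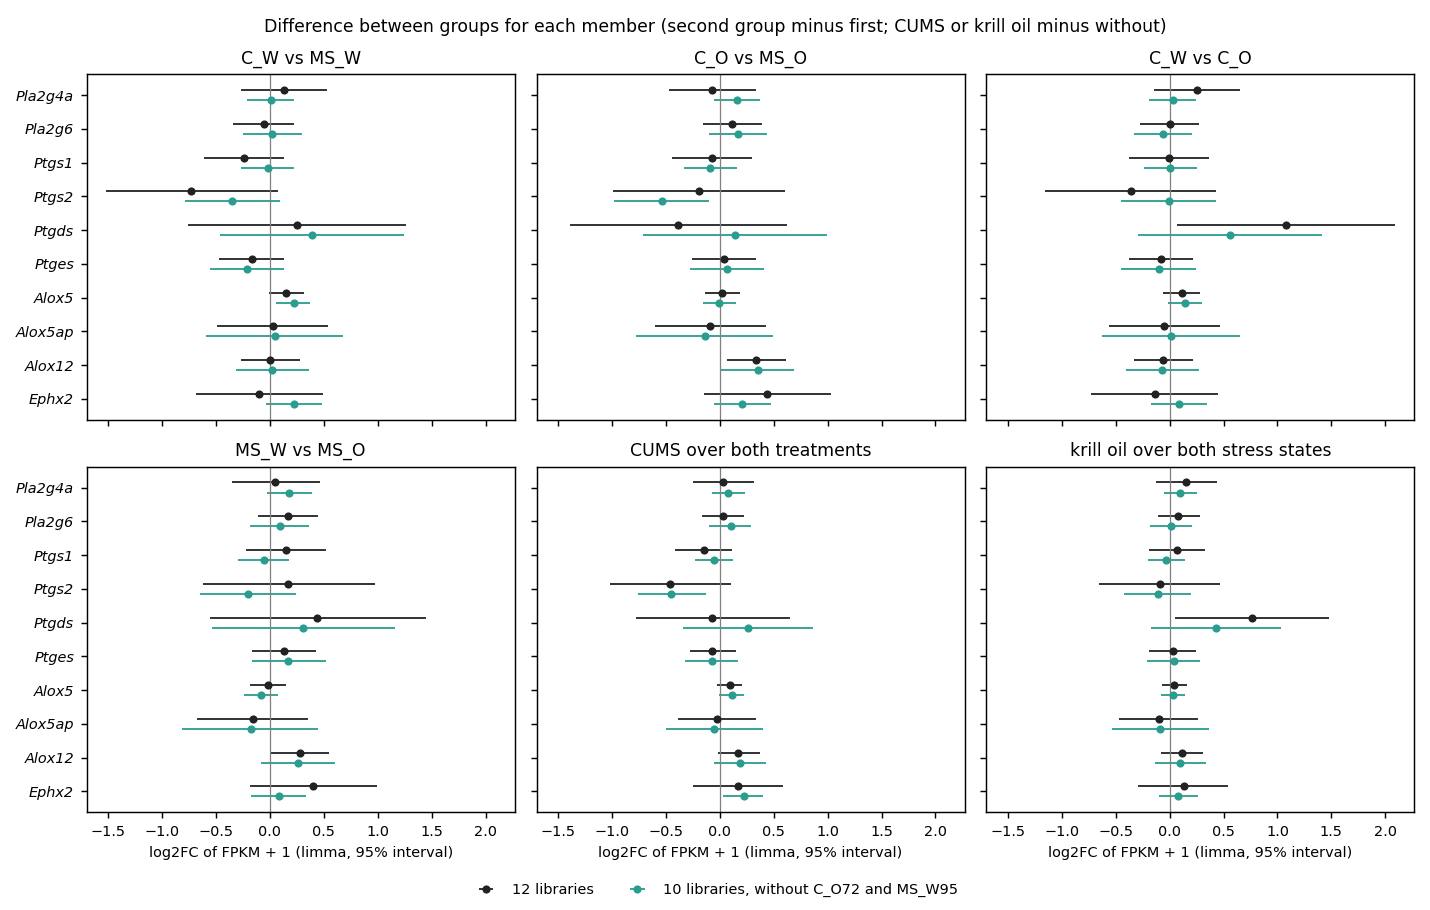
log2FC (x axis, on the scale of log2(FPKM + 1)) of the 10 members with 95% intervals from limma in 6 comparisons, for 12 libraries (black) and for the 10 without C_O72 and MS_W95 (green). The intervals of Ptgs2 and Ptgds are widest with 12 libraries, and that of Ptgds in C_W vs C_O goes from 0.07 to 2.09 with 12 libraries and from -0.29 to 1.41 with 10.

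The other genes of the pathway were 119 symbols in 8 roles, of which 117 were found and 77 passed the filter on mean FPKM. The most abundant in each role by mean FPKM were Pla2g7 (55.0), which hydrolyses platelet-activating factor, among phospholipases A2, and the acyl-CoA synthetase Acsl3 (31.9) among genes of arachidonate activation and reacylation. Prxl2b (54.9), a prostaglandin F synthase, led the prostanoid synthases. Ptgfrn (3.62), listed under prostanoid receptors, led that role, but is a negative regulator of the prostaglandin F receptor and not itself a prostanoid receptor. The glutathione S-transferase Mgst3 (93.2) led the lipoxygenases and leukotriene synthesis, and Gpr37 (10.6), a receptor abundant in oligodendrocytes, the leukotriene, HETE and resolvin receptors. Ephx4 (24.3) led the cytochrome P450 and epoxide hydrolase genes, and the exporter Abcc5 (15.3) the genes of breakdown and transport. Of the 8 genes tested in the role of prostanoid receptors, 1 had a mean FPKM of at least 1, and this was Ptgfrn. The most abundant receptor proper was Ptger3, at 0.52.

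None of the 77 passed adjustment by limma in any comparison. An unadjusted p under 0.05 was reached by 11 (14.3%) in C_W vs MS_W, 5 higher and 6 lower in MS_W, by 7 (9.09%) in C_O vs MS_O, 5 higher and 2 lower in MS_O, and by 4 (5.19%) in each of C_W vs C_O, MS_W vs MS_O and the interaction, 2, 3 and 2 of them higher. For CUMS over both treatments it was 9 (11.7%), 4 higher and 5 lower, and for krill oil over both stress states 4 (5.19%), 3 higher and 1 lower. The shares of all tested genes were 10.5%, 8.88%, 3.55%, 6.09%, 7.23%, 12.5% and 3.22%. Over the 10 libraries the counts, in the same order, were 14, 8, 0, 9, 6, 16 and 2 of the 77, and the shares of all tested genes were 15.4%, 13.6%, 4.06%, 8.54%, 7.51%, 22.2% and 4.96%. The median log2FC of the 77 genes lay between -0.02 and 0.04 in all 7 comparisons.

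In C_W vs MS_W the smallest p values were those of the lysophospholipid acyltransferase Lpcat4, with a mean FPKM of 25.0 in MS_W and 37.9 in C_W (log2FC -0.58, SE 0.182, limma, adjusted p = 0.335), of the cytosolic phospholipase Pla2g4e (log2FC -0.49, SE 0.153, limma, adjusted p = 0.341), and of the leukotriene A hydrolase Lta4h (log2FC 0.29, SE 0.0936, limma, adjusted p = 0.352). None of the 3 overlapped between MS_W and C_W, as 24.6% of all tested genes did not, and they were named for their small p. In C_O vs MS_O they were those of Prxl2b (43.3 in MS_O and 67.3 in C_O, log2FC -0.61, SE 0.191), Lgr6 (log2FC 2.09, SE 0.681) and the prostaglandin reductase Zadh2 (log2FC 0.65, SE 0.221), each with an adjusted limma p of 0.479. Lgr6, a receptor of R-spondins and of the lipid mediator maresin, had an FPKM of 14.1 and 13.4 in MS_O46 and MS_O78 and 1.86 in MS_O13, and at most 4.56 in the other groups. It was a DEG, and the MS_O13 library was close to the C_O mice, whose highest value was 1.73.

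For krill oil without CUMS (C_W vs C_O), the smallest p values were those of Acsl4, an acyl-CoA synthetase that prefers arachidonic acid (log2FC -0.84, SE 0.295), of Pla2g4e (log2FC -0.41, SE 0.153) and of the prostaglandin reductase Ptgr2 (log2FC 0.54, SE 0.218), each with an adjusted limma p of 0.908. Over the 10 libraries the log2FC was -0.56 for Acsl4, -0.29 for Pla2g4e and 0.35 for Ptgr2, with unadjusted limma p of 0.0728, 0.0788 and 0.133. Under CUMS (MS_W vs MS_O), the epidermal-type lipoxygenase Aloxe3 was lower in every MS_O mouse, at 0.768, 0.459 and 0.552 against 1.23, 1.07 and 1.87 in MS_W (log2FC -0.58, SE 0.135, limma, adjusted p = 0.442). Mgst3 (log2FC 0.44, SE 0.149) and the carbonyl reductase Cbr2 (log2FC 0.38, SE 0.14) followed, both with an adjusted limma p of 0.79. These 3, named for their small p, did not overlap between the 2 groups, as 12.3% of all tested genes did not.

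For the interaction they were Pla2g4e (0.79, SE 0.217, limma, adjusted p = 0.631), Aloxe3 (-0.47, SE 0.19) and the carbonyl reductase Cbr1 (-0.91, SE 0.382), the last pair with an adjusted limma p of 0.665. Over the 10 libraries the interaction of Aloxe3 was -0.33 (limma, unadjusted p = 0.0766). Pla2g4e was 1.76, 1.99 and 1.69 in C_W, 1.12, 1.49 and 0.790 in C_O, 0.806, 1.02 and 1.22 in MS_W, and 1.9, 1.78 and 1.19 in MS_O, so that C_W was above both C_O and MS_W in every mouse and MS_O overlapped with all. For CUMS over both treatments they were Lta4h (0.22, SE 0.0662, limma, adjusted p = 0.316), the lipoxygenase Alox12b (-0.97, SE 0.315, limma, adjusted p = 0.328) and Lpcat4 (-0.35, SE 0.129, limma, adjusted p = 0.344). Alox12b was 2.34 or higher in the 5 libraries without CUMS other than C_O72, which had 0.160, and at most 1.74 (MS_O13) with CUMS. Over the 10 libraries its log2FC was -1.20 (SE 0.235, limma, unadjusted p = 0.00082, adjusted p = 0.0626). For krill oil over both stress states they were Aloxe3 (-0.34, SE 0.0952), Ptgr2 (0.49, SE 0.154) and the leukotriene C synthase Ltc4s (0.41, SE 0.148), each with an adjusted limma p of 1. Over the 10 libraries Ltc4s had a log2FC of 0.29 (limma, unadjusted p = 0.0531).

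**Figure D4:**
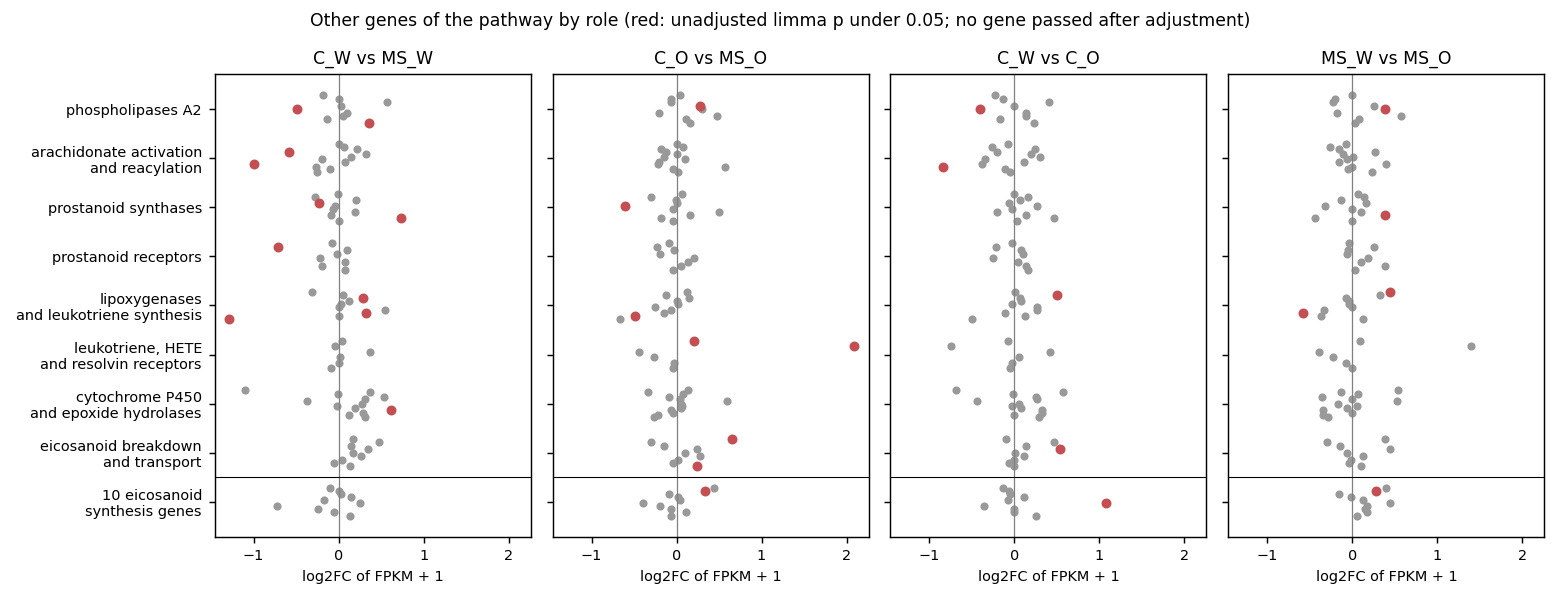
log2FC (x axis, on the scale of log2(FPKM + 1)) of the 77 other pathway genes by role, and of the 10 members in the bottom row, in the 4 pairwise comparisons, with each point a gene and red for an unadjusted limma p under 0.05. The red points lie on both sides of 0 in C_W vs MS_W, 5 higher and 6 lower, and the point above 2 in C_O vs MS_O is Lgr6.

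The 3 members with the largest range over the libraries, on the scale of log2(FPKM + 1), were Ptgds (2.28), Ptgs2 (1.70) and Ephx2 (1.16). For each, the genes with the most similar pattern were searched among 13621 genes (mean FPKM 1 or more) by the root-mean-square difference after scaling each gene to mean 0 and SD 1 over the 12 libraries. They were Slc13a4 (0.265), Aebp1 (0.269) and Ifitm2 (0.321) for Ptgds, Gnaz (0.245), Nrg3 (0.245) and Rasal1 (0.255) for Ptgs2, and Fcrls (0.244), Tiam2 (0.252) and Rlbp1 (0.256) for Ephx2. These likenesses are a description over 12 libraries, in which C_O72 was the highest for Ptgds and C_O72 and MS_W95 were the lowest for Ptgs2 and Ephx2.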

How the data were processed

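The authors aligned filtered paired-end reads with HISAT2, used StringTie to assemble transcripts and merge them, and used Ballgown for expression levels. Per the labels, the submitters' notes name cutadapt 1.9, HISAT2 2.0.4, StringTie 1.3.4d, edgeR and DESeq2 and build mm10. The deposited table holds FPKM and estimated counts made by the authors, unscaled between libraries for the counts, and lists a gene without an estimate at 0.0001.

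Groups followed the library titles. The members, pathway genes and marker lists were chosen with earlier results of these data known, so their counts are descriptions. All 4 groups entered 1 fit of log2(FPKM + 1) in limma 3.58.1 (R 4.3.3), moderated by eBayes with a trend, with Benjamini-Hochberg adjustment over 21393 genes. The same model was also run on simulated data with independent normal noise, in which only genes of higher mean were changed. That run does not cover members of low FPKM such as Alox5 and Alox12, nor libraries that stand apart. A log2FC is smaller than the true log2 ratio for genes of low FPKM, because of the pseudocount of 1. Nothing in the labels beyond the mouse numbers says how the mice were housed or processed. The p-values thus measure the spread between these mice, including any difference in the brain regions that their libraries hold. Other settings tried were quantile normalization, a pseudocount of 0.1 or 0.01, a filter at a mean FPKM of 1 or none, median centring, fits of only the groups compared, a linear model with Ballgown's library size covariate, edgeR 4.0.16 and DESeq2 1.42.0 on rounded estimated counts, leaving out each library, and the 10 libraries. Other pathway genes are named where they passed adjustment or, with fewer than 3 such genes in a comparison, for the 3 smallest unadjusted p under 0.05, and where they are the most abundant of a role. Of the marker symbols, Ahsp was not found. Positions of 8 members are those of GENCODE release 21. Python 3.11.15 with pandas 2.3.3 made the tables, and matplotlib 3.10.9 the figures.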

Additional observations from a re-analysis of the deposited data

How the results depend on the processing

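In 24 alternative settings, no member passed an adjusted p of 0.05 in any comparison that could be computed, and the smallest adjusted p of a member was 0.128. The DEG calls depended on the setting. Alox12 in C_O vs MS_O (1 call) gave 0 with edgeR, DESeq2, the fold change taken from log2(FPKM + 1), median centring, the library size covariate and a mean FPKM of at least 1, the last because it was not tested. Ptgds in C_W vs C_O (1 call) gave 0 over the 10 libraries, with the library size covariate, with no filter and with only the groups compared. Alox12 in MS_W vs MS_O (1 call) gave 0 with edgeR, DESeq2, the fold change from log2(FPKM + 1), a mean FPKM of at least 1, no filter, only the groups compared, both other pseudocounts, quantile normalization and the 10 libraries. In C_W vs MS_W (0 calls), Alox5 gave 1 with DESeq2, a pseudocount of 0.01 and the 10 libraries, and for CUMS over both treatments (0 calls), Ptgds gave 1 with the library size covariate, where it was lower with CUMS (log2FC -1.12). Leaving out 1 library gave 0 to 1 calls in each pairwise comparison and for krill oil over both stress states, and 0 in the others. In C_W vs MS_W the call was Ptgs2 without C_O72 or MS_W31 and Alox5 without MS_W95, and for krill oil over both stress states it was Ptgds without C_O15. The library size covariate also moved Ptgs2 from -0.73 to 0.14 in C_W vs MS_W and from -0.46 to 0.14 for CUMS over both treatments, and Ptgds in C_W vs MS_W from 0.25 to -1.26. That covariate sums log2(FPKM + 1) over the genes below the upper quartile of each library, and is not the total of estimated counts. The cause of these changes was not tested. Of 1559 log2FC values of members, 104 moved by more than 1 SD of the main fit, 10 of them where libraries were left out. Values with edgeR, DESeq2 or another pseudocount are on a different scale from that SD. The count of 104 therefore does not separate a change of scale from a changed result. Of the other pathway genes, 1 passed adjustment with DESeq2 in each of C_O vs MS_O and MS_W vs MS_O, and 1 in C_W vs MS_W with only the groups compared. No paired analysis was possible because the groups share no mouse number. Low FPKM limits what Alox5 and Alox12 can show, and 3 mice per group cannot give an exact permutation p below 0.1.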
